A study of Homo sapiens with 22 samples.

Results

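The promoters described here carried a listed ETS1 peak after FLI1 knockdown and none in control cells. They were selected on presence in 4 ETS1 peak lists from TC-32, an established Ewing sarcoma cell line, transfected with 20 nM of either a control siRNA (siNEG) or an siRNA against FLI1 (siFLI1), which depletes the fusion protein EWSR1::FLI1 that these cells carry. Each arm had 2 ETS1, 2 H3K27ac and 2 H3K4me3 libraries and 1 further H3K27ac library labelled ab4729. All came from this 1 line, and the labels do not state separate cultures or transfections, so the spread between libraries may be technical. The 4 lists were merged wherever peaks shared 1 bp, and 1085 of 2706 merged ETS1 regions were chosen by being in both siFLI1 lists and in no siNEG list, with a centre within 1 kb of a transcription start site (TSS) of GENCODE release 44. They are called knockdown-only sites below, which refers to the lists and not to measured binding in control cells.

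ETS1 is a transcription factor of the ETS family, whose members share a DNA-binding domain that recognises a GGAA core, most tightly within CCGGAA. EWSR1::FLI1 joins the ETS domain of FLI1 to the activating part of EWSR1 and binds the same core. H3K4me3 marks promoters of active or poised genes, and H3K27ac marks active promoters and enhancers.

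Library facts bear on every count that follows. The siNEG ETS1 lists held 302 and 208 peaks on chromosomes 1 to 22 and X, and the siFLI1 lists held 1633 and 2635. Across all positions 1190 of the 2706 merged regions (44.0%) were in both siFLI1 lists and no siNEG list, and 2 were in the opposite class. When each list was cut to its 208 strongest peaks, 41 promoter sites met the rule in place of 1085. Peak names inside the list of siFLI1 replicate 1 carried the number 2, as did those of replicate 2. Summit heights at 1044 knockdown-only sites with 1 peak per list differed between the 2 siFLI1 lists by less than sampling noise (chi-square per degree of freedom 0.253). The value was 0.557 at 107 promoter regions in all 4 lists. For H3K27ac replicates it was 1.16 in siNEG (90 sites) and 1.22 in siFLI1 (122 sites). Those sites had 1 peak per list and a whole-number height recovered in both. The siNEG ETS1 pair was not compared by height. A site had to pass the caller's limit in both lists to be compared, and the part of that selection in these values was not tested. Whether 1 library was listed in 2 forms was not settled. As the cautious choice both lists after knockdown count as 1 sample here, and agreement between them is no replicate evidence. Without siFLI1 replicate 1, 2007 sites met the rule, and without replicate 2, 1181. At 10 Ewing sarcoma marker genes, 10 promoters had H3K4me3 and 9 had H3K27ac in both siNEG lists, with PAX7 lacking H3K27ac. At 10 markers of other lineages the counts were 0 and 3. No marker gene had a knockdown-only site.

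Sequences around the ETS1 summits of the highest-ranked sites are shown first, as examples of the DNA under strong peaks; the share of all sites with each motif is given with the motif results. They are 5 of the 10 highest-ranked sites, not a complete set, each with a 101-base window that touches no annotated UTR, read from the plus strand of hg38. Capitals mark the GC box GGGCGG, which SP-family factors bind, the CCAAT box, which NF-Y binds, and CCGGAA, each on either strand.
LINC01004, chr7:105012702-105012802: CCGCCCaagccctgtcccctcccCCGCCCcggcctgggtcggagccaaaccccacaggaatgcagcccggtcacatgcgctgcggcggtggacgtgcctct
ASH1L, chr1:155562895-155562995: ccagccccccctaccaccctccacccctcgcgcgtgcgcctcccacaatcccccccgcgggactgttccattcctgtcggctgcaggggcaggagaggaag
ATXN2L, chr16:28822868-28822968: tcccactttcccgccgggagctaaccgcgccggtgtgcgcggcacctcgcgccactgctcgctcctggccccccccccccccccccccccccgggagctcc
CCDC102A, chr16:57536225-57536325: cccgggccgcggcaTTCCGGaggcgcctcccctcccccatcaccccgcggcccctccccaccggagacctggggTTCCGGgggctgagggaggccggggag
PHIP, chr6:79078293-79078393: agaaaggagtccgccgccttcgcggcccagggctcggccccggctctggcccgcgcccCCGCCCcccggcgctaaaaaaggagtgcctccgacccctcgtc
LINC01004 held 2 GC boxes and PHIP held 1. CCDC102A was the only window of these 5 with CCGGAA, which it held in 2 copies. ASH1L and ATXN2L held none of the 3 motifs.

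The next set is of 30 bases around the CCGGAA match nearest to the summit, for 6 of the highest-ranked sites that held one within 50 bp. Capitals mark the match, which reads TTCCGG where it lies on the minus strand.
ATP5PF, chr21:25735621-25735650: gggccggcctcgTTCCGGggccttttcccc
PIK3CA, chr3:179148102-179148131: ttgcgcatctgcTTCCGGgggattgtaggc
NAA60, chr16:3457735-3457764: cgggacctcggcCCGGAAaccgcgccaccg
HEATR6, chr17:60078950-60078979: ccagggaaatacTTCCGGgacatcctcccg
FRS2, chr12:69470361-69470390: tcccccgctcccCCGGAAgtgcttttccaa
IER2, chr19:13151798-13151827: cgcgccccccccCCGGAAgccccgccgccg
FRS2 reads the longer CCGGAAGT on the plus strand and HEATR6 on the minus strand. The ATP5PF match lies at a promoter shared with GABPA, which encodes another ETS factor.

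Column 7 of the lists, the peak caller's fold of the summit over local background, placed the knockdown-only sites below the strongest peaks of both siFLI1 lists. Their median percentile, where 100 is the strongest peak, was 46.2 in replicate 1 and 60.3 in replicate 2, and 92.7 and 95.7 at promoter regions in all 4 lists. Their fold was 6.12 at the median in siFLI1 replicate 1 (lowest 3.11, highest 13.9) and 7.34 in replicate 2 (3.08 to 17.7). Tag heights recovered from fold and p-value had medians of 21 and 19 tags, against 37 and 36 tags at the 115 promoter regions in all 4 lists, so single sites rest on few tags. The highest-ranked knockdown-only peak stood at rank 32 in replicate 1 and rank 44 in replicate 2. Of the 50 strongest peaks, 4 and 2 were knockdown-only and 34 and 36 belonged to promoter regions in all 4 lists. In replicate 1, knockdown-only peaks made up 38.7%, 69.4%, 81.6%, 80.4% and 62.7% of 5 equal bins from strongest to weakest. In replicate 2, which was longer, the same shares were 46.3%, 60.7%, 45.0%, 37.2% and 24.1%. Since ETS1 presence chose the sites, these ranks are a description. Both lists placed 434 sites above their middle and 333 at or below it, and the other 318 were split.

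**Figure D1:**
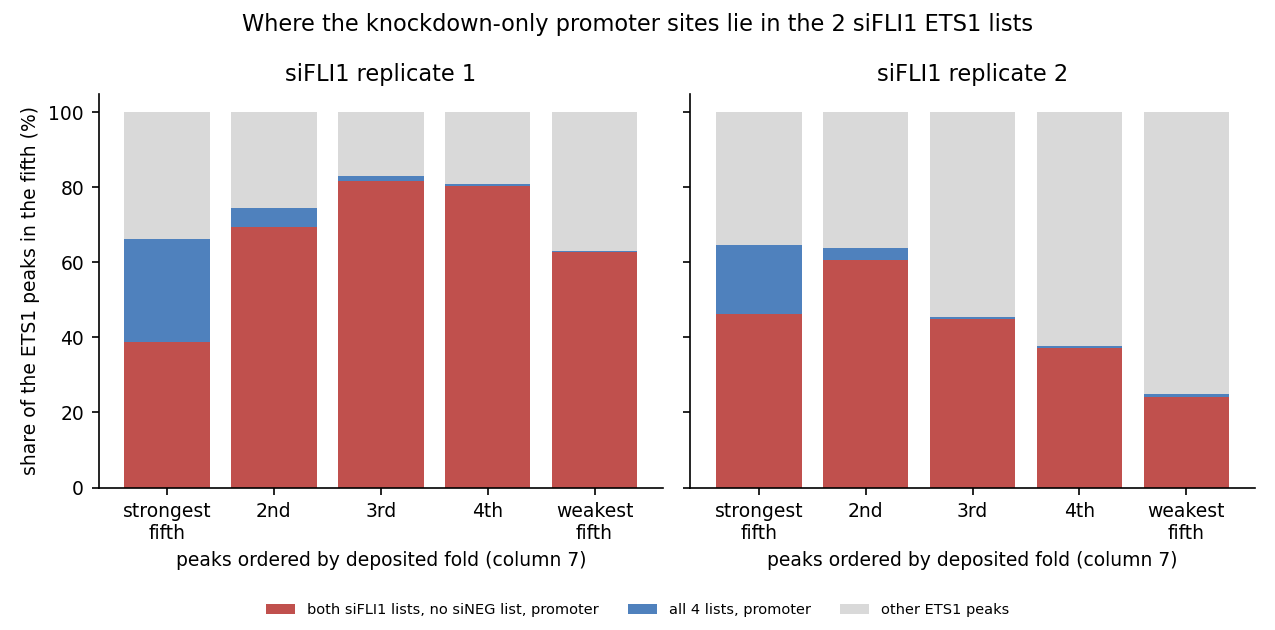
Share of ETS1 peaks (%, y axis) in 5 equal bins of the siFLI1 replicate 1 list (left) and replicate 2 list (right), ordered by deposited fold from strongest to weakest. Red bars are knockdown-only promoter sites, blue bars promoter regions in all 4 lists and grey bars all other ETS1 peaks; the red share is highest at 81.6% in replicate 1 and 60.7% in replicate 2, in neither case in the strongest bin.

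The 10 highest-ranked sites were taken by the lower of their 2 percentiles. PRR12 came first, with a fold of 13.8 in replicate 1 and 16.3 in replicate 2 at chr19:49590997-49591816. DNMT3B, a de novo DNA methyltransferase, followed with 12.4 and 17.7. The lncRNA gene LINC01004 had folds of 12.8 and 14.3, and MTF1, the metal-responsive transcription factor, had 11.7 and 15.1. BCL2L2, which encodes the anti-apoptotic protein BCL-W, had 11.6 and 16.6. SMARCA2, which encodes the BRM ATPase of BAF complexes, had 11.4 and 16.3 with a summit 46 bp upstream, in an intron of another transcript model. ASH1L, a histone H3 lysine 36 methyltransferase, had 12.8 and 13.8. ATXN2L, an RNA-granule protein, had 11 and 15.9, CCDC102A had 11.5 and 13.2, and PHIP, a bromodomain protein, had 10.9 and 13.9. At the other end, SOCS2 (3.11 and 5.93), LINC01607 (4.35 and 3.08) and PCBP1 (4.15 and 3.28) stood lowest. In replicate 2 the fold was higher than in replicate 1 at all 10 leading sites.

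**Figure D2:**
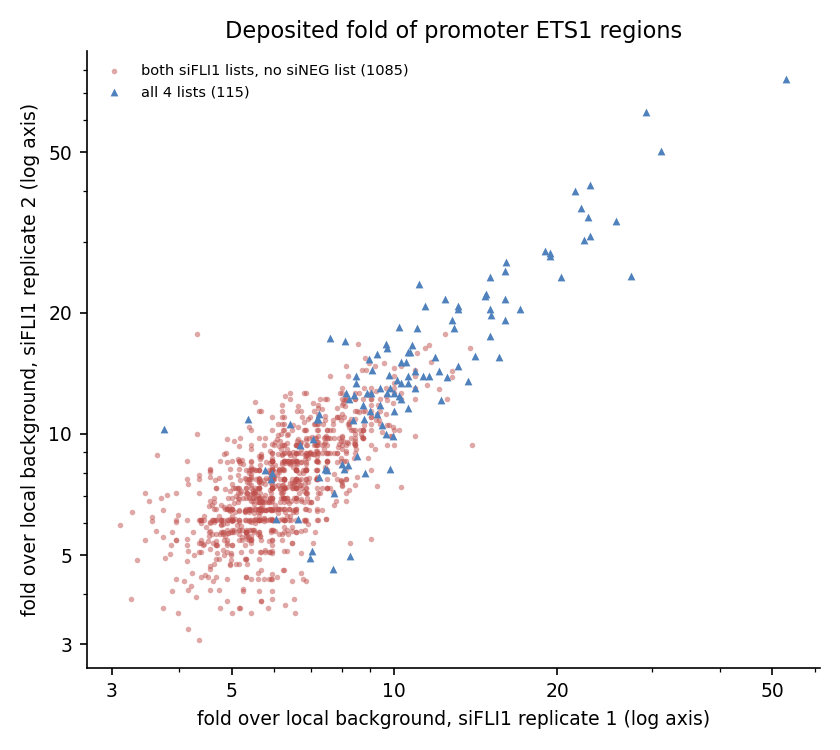
Deposited fold over local background at promoter ETS1 regions in siFLI1 replicate 1 (x, log axis) and replicate 2 (y, log axis). Each red point is 1 of 1085 knockdown-only sites and each blue triangle 1 of 115 promoter regions in all 4 lists; the red points reach 13.9 and 17.7, and the triangles reach 53.1 and 76.1.

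The rule held every centre within 1 kb of a start, so the positions inside that range are a description. The summit was within 100 bp of a TSS of the named gene at 550 sites (50.7%; exact 95% interval 47.7 to 53.7) and within 250 bp at 884 (81.5%). It lay upstream at 64.6% of sites, against 75.7% (66.8 to 83.2) of the 115 promoter regions in all 4 lists. By annotation 381 summits were intronic, 298 intergenic, 290 in a UTR, 92 in an exon of a non-coding transcript and 24 in a coding exon. The named gene was protein-coding at 1039 sites and a lncRNA at 43. At the edge of the 1 kb rule, ZBTB2 (centre 967 bp from a TSS, folds 7.20 and 7.74), LINC01775 (918 bp) and DLEU2 (914 bp) stood inside, and COL5A3 (1006 bp), GLI2 (1014 bp) and PTPRS (1037 bp) stood outside. The folds of the latter 3 ran from 4.86 to 7.41. With only the 5' end of each gene as a TSS, 906 sites met the rule. MIDN, RAI1 and ZNF516 had 3 sites each, and 50 protein-coding genes had 2 or more.

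**Figure D3:**
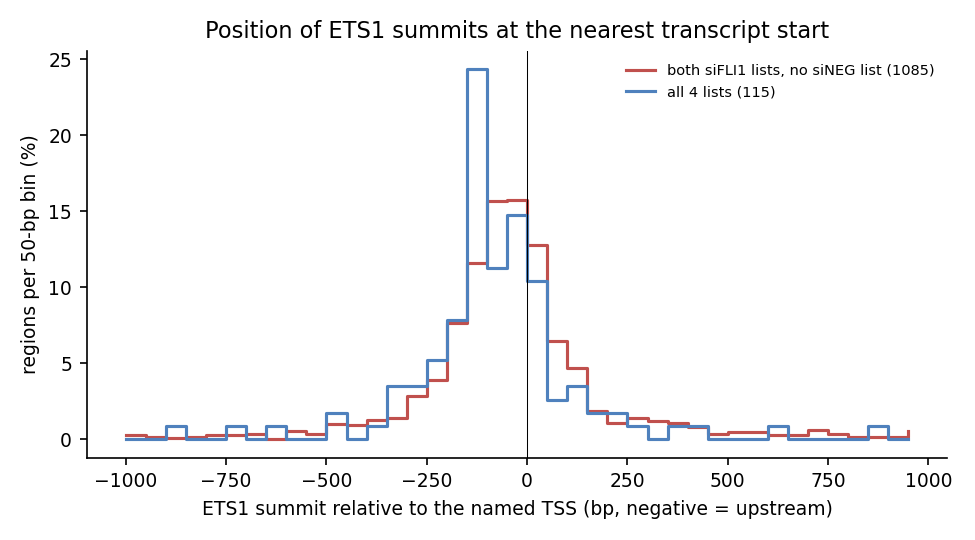
Position of the ETS1 summit relative to the named TSS (x, bp, negative is upstream), as the share of regions per 50 bp bin (y, %), for 1085 knockdown-only sites (red) and 115 promoter regions in all 4 lists (blue). Both distributions peak just upstream of the TSS, and 50.7% of the knockdown-only summits lie within 100 bp of one; the few summits beyond 1000 bp are in the outer bins.

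A bidirectional promoter is one from which 2 genes are read in opposite directions. Here it required protein-coding transcripts of 2 genes head to head, at most 1000 bp apart, both within 1 kb of the centre. This held for 133 sites (12.3%; 10.4 to 14.4), with a median of 159 bp between the 2 TSSs (0 to 966). Of 9974 promoters of protein-coding genes that had H3K4me3 in both siNEG lists, 13.0% were bidirectional, and of the 115 regions in all 4 lists 21 were (18.3%; 11.7 to 26.5). The share among knockdown-only sites was thus near that of marked promoters in general. The highest-ranked pair was ASH1L with MSTO1, a mitochondrial morphology gene, 73 bp apart. It was followed by ATP5PF, a subunit of ATP synthase, with GABPA (68 bp, folds 10.9 and 13.0), and by FAM117A with KAT7, a histone acetyltransferase (32 bp, 8.73 and 14.4). KIAA0319L with NCDN (40 bp) and SRPRA with FOXRED1 (47 bp) came next. When genes of any type counted, the share was 36.3%, against 33.1% of the marked promoters.

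Before knockdown nearly every site already carried H3K4me3. A peak of the mark overlapped 1065 of 1085 sites (98.2%) in each siNEG list, and 1062 (97.9%) and 1064 (98.1%) in the siFLI1 lists. The mean was 98.2% ± 0 in siNEG and 98.0% ± 0.13 in siFLI1 (SD, n = 2), which is -0.184 percentage points for siFLI1 minus siNEG. An exact two-sided permutation over the libraries gave p = 0.33, and 2 against 2 cannot go lower. The ETS1 summit itself lay inside an H3K4me3 peak at 93.2% and 93.7% of sites in the siNEG lists. H3K4me3 regions at the sites were 4801 bp wide at the median (interquartile range 3706 to 6126), against 3453 bp for all promoter H3K4me3 regions in all 4 lists. Wider regions also offer more room for an overlap. Within 1 kb of the named TSS, the median H3K4me3 peak stood at percentile 78.0 and 78.6 of the siNEG lists. At the marked promoters it stood at 70.8 and 72.1. Other ETS1 promoters were alike. Median region widths were 5079 bp at the 115 promoter regions in all 4 lists. They were 4766 bp at the 194 in both siFLI1 lists and 1 siNEG list. By direct overlap the median siNEG percentiles were 78.1 and 78.6 at knockdown-only sites. They were 82.4 and 84.2 at the 115 regions and 80.7 and 81.8 at the 194. The mark overlapped 98.3% and 97.9% of these 2 sets in each siNEG list.

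H3K27ac was present before knockdown at most sites and was listed more often after it. A peak overlapped 923 sites (85.1%) in siNEG replicate 1 and 862 (79.4%) in siNEG replicate 2. The siFLI1 libraries gave 962 (88.7%) and 946 (87.2%). Both siFLI1 values lay above both siNEG values. The means were 82.3% ± 3.98 and 87.9% ± 1.04 (SD, n = 2 each), so siFLI1 was 5.67 points higher. The exact two-sided permutation over libraries again gave p = 0.33, its floor in this design. With 1 H3K27ac library left out, the difference ran from 2.86 to 8.48 points. The H3K27ac lists held 60027 and 60401 peaks in siNEG and 65501 and 61481 in siFLI1, and with equal numbers of the strongest peaks taken from each list the difference was 5.44 points. The ab4729 libraries, 1 per arm with no replicate check, overlapped 72.4% (69.6 to 75) in siNEG and 82.9% (80.6 to 85.1) in siFLI1. Their lists held 32738 and 51663 peaks, and the part of that gap in the ab4729 shares was not tested. In the same window of 1 kb around a TSS, H3K27ac was listed at 90.1% and 86.9% of knockdown-only sites in siNEG, against 75.3% and 69.3% of the marked promoters. In siFLI1 the shares were 92.4% and 92.0%, against 77.0% and 75.8%. The knockdown-only sites were above the marked promoters in each of these 4 libraries, and both sets of promoters were higher in siFLI1. Whether the rise differed between the sets was not tested. In this window the TSS was that of the named gene at the sites. At marked promoters it was the mean start of genes that lay within 1 kb of each other. Other ETS1 promoters also carried the mark: H3K27ac overlapped 91.3% and 87.8% of the 115 regions in all 4 lists in siNEG, and 83.5% and 78.4% of the 194 regions in both siFLI1 lists and 1 siNEG list. In siFLI1 the shares were 94.8% and 91.3%, and 86.1% and 85.6%.

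Both marks were listed in both siNEG lists at 833 sites (76.8%), and 5 sites had neither mark in any siNEG list. H3K27ac was missing from both siNEG lists at 147 sites (13.5%), of which 139 had H3K4me3 in both. It was missing from both at 8.7% (4.25 to 15.4) of the 115 promoter regions in all 4 lists. The share was 14.9% (10.2 to 20.8) of the 194 regions in both siFLI1 lists and 1 siNEG list. Both marks were in both siNEG lists at 87% of the 115 regions and 75.8% of the 194. After knockdown H3K27ac was in both siFLI1 lists at 34 of the 147, in 1 at 24 and in neither at 89. This split is not given here for other promoters. DNMT3B, the second highest-ranked site, was among the 89, with H3K4me3 folds of 27.7 and 39.3 in siNEG and 26.6 and 44.2 in siFLI1. GLI1, the Hedgehog effector and a known target raised by EWSR1::FLI1, had no H3K27ac peak in any library at its site (ETS1 folds 10.0 and 12.6; H3K4me3 folds 14.7 and 14.5 in siNEG). EN2, a homeobox gene, had neither mark in siNEG. MLLT1, which encodes the acetyl-lysine reader ENL, had H3K27ac at 5.08 and 6.73 in the siFLI1 lists and none in siNEG. STON1, an endocytic adaptor gene, had 8.82 and 11.8 in siFLI1, none in siNEG, and an ab4729 peak of 10.4 in siFLI1 only. H3K4me3 was missing from both siNEG lists at 15 sites, led by EN2, RUNDC3A, RNF169, ENSG00000245651 and ENSG00000261334. RNF169, ENSG00000245651 and ENSG00000261334 had H3K27ac in both siNEG lists.

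Few sites lay in a mark region that was itself gained, meaning in both siFLI1 lists and no siNEG list of that mark. A gained H3K27ac region was met by 23 of 1085 sites (2.12%). Of all merged H3K27ac regions 8.19% were gained, and of those at promoters 6.77%. A lost H3K27ac region, the opposite class, was met by 2 sites (0.184%), beside 4.86% of all H3K27ac regions and 2.18% of those at promoters. The denominators are sites in one case and regions in the other. No site met a gained H3K4me3 region, which with a limit of 3 counts allows a share of up to 0.276%, or a lost one, beside 2.17% and 2.83% of all H3K4me3 regions and 2.45% and 1.35% of those at promoters. ACVR1, a BMP type I receptor, was among the 23, with H3K27ac folds of 9.80 and 7.24 in siFLI1 and no siNEG peak at the site. WTIP (4.37 and 3.82) and ATP2B1, a plasma membrane calcium pump (14.1 and 6.77), showed the same pattern. ZBTB12 and CASP9, the initiator caspase of the mitochondrial pathway, met a gained region beside H3K27ac peaks that siNEG already had (4.47 in replicate 1 at ZBTB12, 24.4 and 14 at CASP9). The 2 sites at a lost region were FAM8A1 and RAB8A, a Rab GTPase of membrane traffic. RAB8A had H3K27ac of 9.54 and 7.71 in siNEG and none in siFLI1. With 1 H3K27ac list left out, the number at a gained H3K27ac region was 63 without siNEG replicate 1 and 32 without siNEG replicate 2. It was 40 without siFLI1 replicate 1 and 39 without siFLI1 replicate 2. Leaving out a list loosens the rule, which tends to raise the number, so these values do not single out 1 library. At gained H3K4me3 regions the number was 5 without siFLI1 replicate 1 and 2 without siFLI1 replicate 2. It was 2 without siNEG replicate 1 and 0 without siNEG replicate 2.

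Which motifs the summits held was read beside 3 backgrounds: windows 500 bp to each side, the TSS of the same genes, and starts of marked promoters. CCGGAA stood within 50 bp of the summit at 120 sites (11.1%; 9.26 to 13.1), against 4.24% of flanking windows. At the sites' own TSSs the share was 12.4%, and at marked promoters 15.0% (14.3 to 15.8). The longer CCGGAAGT stood at 2.67%, against 0.138% of flanks and 5.01% of marked promoters. The motif was thus commoner at summits than in flanks and less common than at starts of marked promoters. The bare GGAA core was at 64.5% of summits, 65.1% of flanks and 65.3% of marked promoters. In bins of 50 bp around the summit, CCGGAA matches were most frequent just downstream, at 7.19 matches per 100 sites, and the outermost bins held 1.66 upstream and 3.04 downstream. The GC box GGGCGG stood at 53.2% of summits (50.2 to 56.2), against 25.6% of flanks, 53.3% at the sites' own TSSs, 43.8% of marked promoters and 40.0% (31.0 to 49.6) of the 115 regions in all 4 lists. The share at summits was thus near that at the same genes' TSSs. It stood at 58.8% (51.5 to 65.8) of the 194 promoter regions in both siFLI1 lists and 1 siNEG list. CCAAT stood at 15.9% of summits (13.7 to 18.2), against 8.94% of flanks, 11.2% at the own TSSs, 13.9% of marked promoters, 26.1% (18.3 to 35.1) of the regions in all 4 lists and 24.7% (18.8 to 31.4) of those with 1 siNEG list. CCGGAA stood at 9.57% and 11.9% of these 2 sets. The median GC content in 301-base windows was 71.8% at knockdown-only sites, 71.1% at the 194 regions with 1 siNEG list, 67.8% at regions in all 4 lists and 67.1% at marked promoters. A match describes letters and is not a bound site.

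The sites were also read in 4 equal groups by rank, from strongest to weakest, as a description. CCGGAA stood at 11.1%, 11.8%, 13.3% and 8.09%. H3K27ac was in both siNEG lists at 78.6%, 81.9%, 75.6% and 76.1%, and H3K4me3 at 97.4% to 98.2%. Bidirectional promoters made up 8.12% of the strongest group and 14.8%, 13.7% and 12.5% of the others.

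By gene, 1177 of 12653 protein-coding genes with H3K4me3 in both siNEG lists had a knockdown-only site (9.30%), and 29 functional lists were read beside this share. The lists were set by gene symbol, no test was run over them, and genes with more annotated TSSs offer more positions for a site. Sites chosen without siFLI1 replicate 1 were at 16.4% of marked genes, and the lists were not read again with those sites. Chromatin lists had the highest shares, and they also held genes with a promoter region in all 4 lists: 9 histone-modifying enzymes and readers, 2 DNA methylation genes and 1 remodeller. Of 19 marked genes that write, erase or read DNA methylation, 5 had a site (26.3%; 9.15 to 51.2, an interval that includes 9.30%), led by DNMT3B and by DNMT1, the maintenance methyltransferase (folds 6.96 and 8.97). Of 136 histone-modifying enzymes and readers, 30 had one (22.1%; 15.4 to 30), led by ASH1L, the coactivator NCOA2 and the demethylase KDM3A (9.39 and 12.2). KDM6A (9.07 and 11), HDAC1, HDAC2 and EP300 were others of the 30. Of 58 ATP-dependent remodellers, 12 had one (20.7%; 11.2 to 33.4), led by SMARCA2, INO80 (8.01 and 9.37) and SMARCA1. This list was also set by symbol, and its 12 include ARID3A and ARID4B, which are not known as ATP-dependent remodellers. INO80 had H3K27ac folds of 36.3 and 16.2 in siNEG and 44.3 and 38.4 in siFLI1, whereas KDM5B (8.03 and 11.9) had no H3K27ac peak at its site in any of the 4 libraries.

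Shares of the signalling lists were also above that of all marked genes. TGF-beta, WNT, Notch and Hippo genes had sites at 15 of 84 (17.9%; 10.4 to 27.7), led by ACVR1, the WNT receptor FZD1 (7.16 and 9.36) and HEY1. MAP kinase and PI3 kinase genes had them at 16 of 96 (16.7%; 9.84 to 25.6), led by PIK3CA, the catalytic subunit p110-alpha (9.07 and 11.4), and the regulatory subunit PIK3R3 (9.39 and 10.6), followed by MAPK15. The ETS family had 4 of 20 (20.0%; 5.73 to 43.7): GABPA, ELF2 (5.94 and 7.34), ETV3 (4.44 and 6.24) and ERF (5.17 and 3.69), a repressor of the family. ERF also had a promoter region in all 4 lists. The interval of the ETS family includes 9.30%, as do those of the next 3 lists. Splicing factors had sites at 19 of 129 (14.7%; 9.11 to 22), led by PRPF40B and HNRNPR, chaperones at 13 of 84 (15.5%; 8.51 to 25), led by DNAJB12 and DNAJA1, and translation factors at 10 of 66 (15.2%; 7.51 to 26.1), led by EIF4G3 (9.56 and 15.0). Symbols caught HSPG2, a matrix proteoglycan, in the chaperone list, and HSPD1, HSPE1 and the readthrough HSPE1-MOB4 share 1 site. By symbol alone the translation list also holds EIF2AK3 and EIF4ENIF1, and the cell cycle list CDK9 and CDK13.

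Other lists had shares below that of all marked genes, and of the 29 intervals only that of the respiratory list lies wholly below 9.30%. Respiratory chain and ATP synthase genes had sites at 3 of 100 (3%; 0.623 to 8.52), which were ATP5PF, COX5A (6.99 and 11) and NDUFS1. Cytosolic ribosomal protein genes had 4 of 82 (4.88%; 1.34 to 12), led by RPL35, which shares its site with ARPC5L (7.89 and 11), and mitochondrial ribosomal protein genes 4 of 77 (5.19%; 1.43 to 12.8). Autophagy and lysosome genes had 2 of 69 (ATG13 and ULK1), histones 2 of 67 (H3-3B and H2AZ2), the proteasome 2 of 48 (PSMD2 and PSMD7) and aminoacyl-tRNA synthetases 1 of 35 (YARS1). Mitochondrial protein import had 1 of 26, TOMM40. Vesicle traffic genes had 16 of 272 (5.88%; 3.40 to 9.38) and DNA replication and repair genes 7 of 129 (5.43%; 2.21 to 10.9). Zinc finger genes, at 45 of 542 (8.30%), ubiquitin enzymes, at 31 of 348 (8.91%), RNA polymerases and general transcription factors, at 9 of 104 (8.65%), and nuclear pore and transport genes, at 5 of 56 (8.93%), were near the background. So were cell cycle genes, at 18 of 168 (10.7%), and collagens and matrix genes, at 6 of 56 (10.7%), led by FN1 (8.01 and 11.8).

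**Figure D4:**
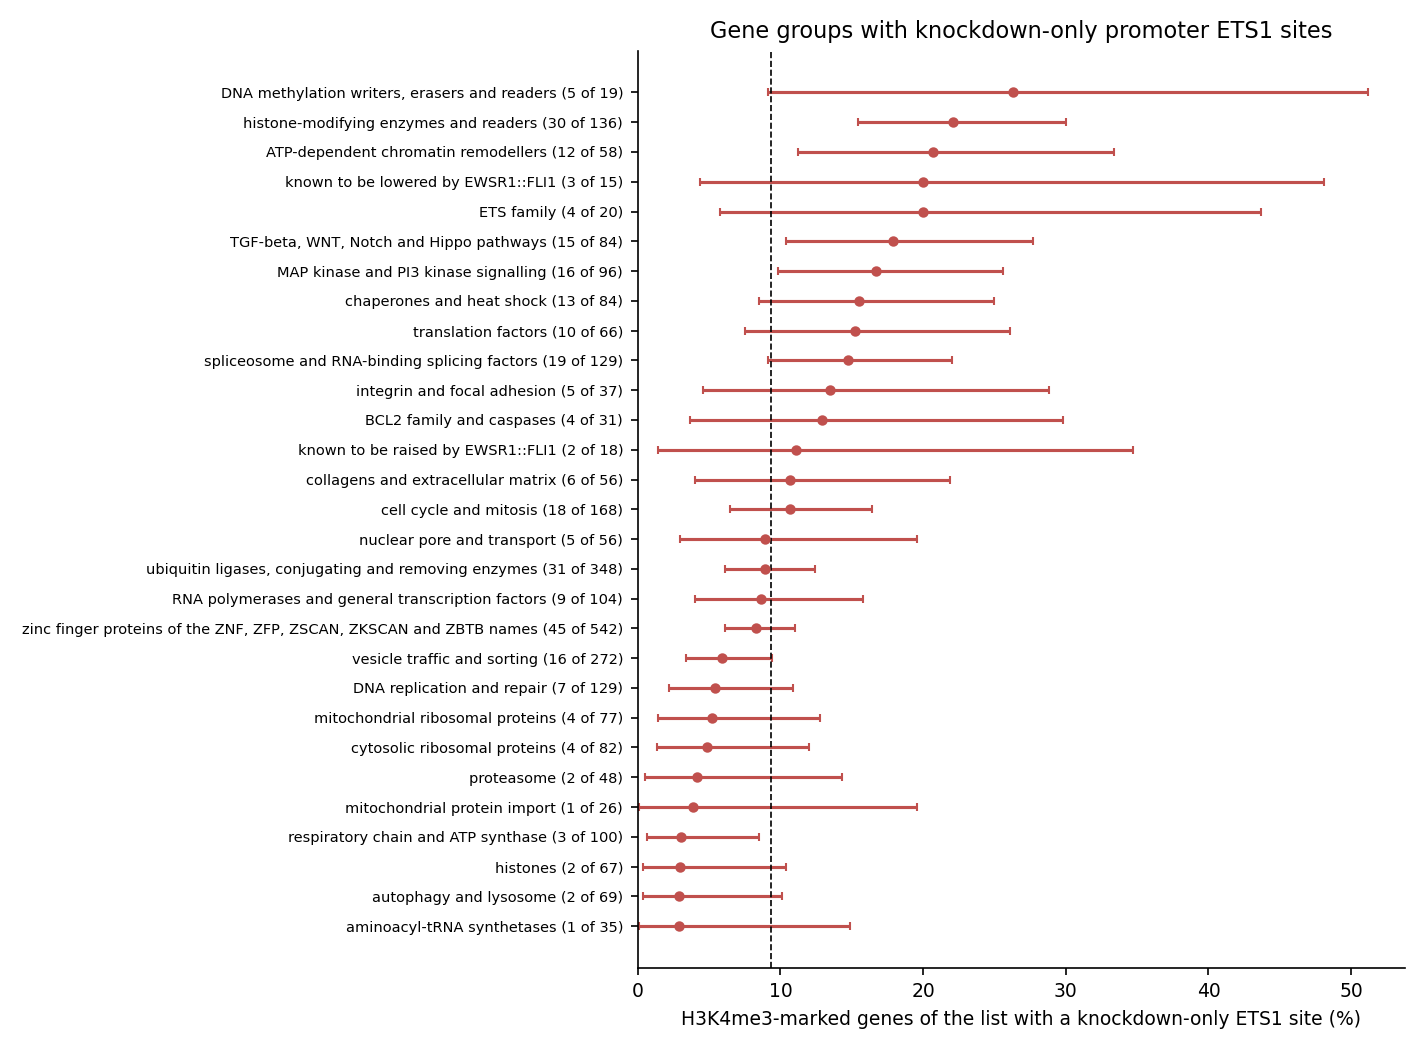
Share of H3K4me3-marked genes of each functional list that had a knockdown-only ETS1 site (x, %), with exact 95% binomial intervals over genes; the counts stand beside each name. The dashed line is the share of all 12653 marked protein-coding genes (9.30%); the chromatin lists stand highest and the synthetase, lysosome, histone and respiratory lists lowest.

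Lists tied to the fusion and to adhesion were small, and their intervals all include the 9.30% of all marked genes. Of 18 marked genes known to be raised by EWSR1::FLI1, 2 had a site (11.1%; 1.38 to 34.7), GLI1 and ID2 (6.26 and 8.15). Of 15 known to be lowered, 3 had one (20%; 4.33 to 48.1): ZYX, a focal adhesion LIM protein (7.70 and 10.8), HEY1, a Notch effector (7 and 8.91), and VIM, the intermediate filament vimentin (5.80 and 6.11). ZYX had H3K27ac of 11.5 and 6.76 in siNEG and 18.2 and 26.1 in siFLI1, and VIM had 22.6 and 15.7 against 19.9 and 14.6. The siFLI1 values at ZYX were above the siNEG values, while those at VIM overlapped them. These folds come from separate lists and were not scaled between libraries, so the contrast is a description. The 37 marked integrin and focal adhesion genes had sites at 5 (13.5%; 4.54 to 28.8), namely ZYX, LIMS1, ITGB1, ITGB1BP1 and TNS3. TNS3, a tensin that links integrins to actin (5.65 and 7.14), had no H3K27ac peak at its site in any of the 4 libraries. No knockdown-only site was at a promoter of ETS1, FLI1, EWSR1, TNS1, TNS2 or TNS4. Of 31 marked genes on the BCL2 family and caspase list, 4 had one (12.9%; 3.63 to 29.8): BCL2L2 and its readthrough BCL2L2-PABPN1, which share 1 site, CASP9, and XIAP, an inhibitor of caspases that the list includes.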

How the data were processed

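Peak lists of 14 ChIP libraries were analysed, 1 per library. Per the submitters' processing notes, the tools were cutadapt 4.4, BWA 0.7.17, Picard 2.17.11 and MACS2 2.1.1, and the builds named were GRCh38, hg38 and dm6. The role of dm6 and the control library of each list are not given in the sources used here. The authors deposited a fold (ratio over local background), a −log10 p-value and q-value and a score per peak. These are the authors' own values. They were used to rank peaks within a list, to recover tag heights, and to filter peaks by q-value in some alternatives. Folds of different libraries are also printed side by side, and they were not scaled between libraries. The deposited score was not used. The lists hold no read totals. For the siFLI1 ETS1 lists the lowest local background, with an assumed genome of 2.7 Gb, corresponds to about 21.6 M and 24.5 M tags; the depth of the other libraries is unknown.

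No peak of the 411990 on chromosomes 1 to 22 and X ended beyond its hg38 chromosome. Peaks were merged, annotated with GENCODE release 44 and searched for motifs with Python 3.11, pandas 2.3.3, scipy 1.17.1 and pysam 0.24.0, and sequences read with samtools 1.23.1 indexing. Functions for merging and tag heights were tested on simulated data. Intervals are exact (Clopper-Pearson) and cover counting error over regions only. The members and lists were chosen with earlier results of these data known. Sites were named by a rule: the 10 highest and 3 lowest percentiles, the leading members per list, the 5 leading pairs, and the leading sites of each mark class. KDM6A, KDM5B, HDAC1, HDAC2 and EP300 and genes with 3 sites were chosen after their values were seen. Inputs were not analysed here, and a few items are not reported here.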

Additional observations from a re-analysis of the deposited data

Results flagged for a closer look

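The list of siFLI1 ETS1 replicate 1 held 7 peaks outside chromosomes 1 to 22 and X, of which 6 were on the mitochondrial genome, whereas the other 3 ETS1 lists held 0. These peaks lie outside the regions compared, and no knockdown-only site rests on them.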

How the results depend on the processing

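Of 54 alternatives over 8 results, 37 stayed near the reported value, meaning the same sign for a difference, within 1.5 times for a count and within the exact 95% interval for a share. The number of knockdown-only sites was 41 with equal numbers of the strongest peaks and ran from 1143 to 2007 when 1 ETS1 list was left out. The H3K27ac difference stayed positive in every alternative run (2.86 to 8.48 points with a library left out). With the replicate block it was 5.67 points (3.59 and 7.74 within numbers 1 and 2; exact sign-flip p = 0.50), and the H3K4me3 difference was -0.184 points (p = 0.50). The labels do not say what the numbers share, so the block shows only the arithmetic. The H3K4me3 difference was 0 where at least 50% of a site had to be covered, and ran from -0.276 to -0.0922 points with a library left out. CCGGAA was at 5.90% of sites within 25 bp (9.76% of marked promoters) and 24.7% within 150 bp (27.8%). Bidirectional promoters were 36.3% with genes of any type. Of all protein-coding genes 5.92% had a site. The number at gained H3K27ac regions was 12 with 50% coverage and ran from 32 to 63 with a library left out; at gained H3K4me3 regions it was 1 with equal numbers of the strongest peaks and 0 to 5 with a library left out. Results on the 2007 sites chosen without siFLI1 replicate 1 were added after seeing the data: they gave 16.4% of marked genes, 35 at gained H3K27ac regions and an H3K27ac difference of 6.35 points.

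A peak list shows only what passed a caller's limit. Absence from a siNEG list is therefore not absence of ETS1, and fewer bound cells, weaker binding and a weaker immunoprecipitation cannot be told apart here. Sites rest on a median of 21 and 19 tags in the siFLI1 lists. The regions are not replicates, and with 2 libraries an arm the exact permutation test cannot give a p-value below 0.33.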
